A study of Mus musculus with 6 samples.

Results

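The genes described here encode the nuclear-encoded subunits of the mitochondrial respiratory chain and of the ATP synthase. They were measured by RNA sequencing in SCC7, a mouse squamous cell carcinoma line. The members were chosen by symbol alone, as every row of the deposited table whose symbol begins with Ndufa, Ndufb, Ndufc, Ndufs or Ndufv followed by a number, is Sdha, Sdhb, Sdhc, Sdhd or Cyc1, or begins with Uqcr, Cox4 to Cox8, or Atp5. The rule used no measured value and found 81 of the 17030 genes in the table: 36 of complex I, 4 of complex II, 9 of complex III, 15 of complex IV and 17 of the ATP synthase, also called complex V. Ndufa4 is counted with complex I by its symbol, although its product is now placed in complex IV.

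The study compared 3 untreated SCC7 samples (control) with 3 SCC7 samples that had received radiotherapy (irradiated), and the treatment protocol names a dose of 9 Gy. All 6 samples carry the label day 0, so the time between irradiation and harvest is not given. Both groups are the same cell line, and no allele or other agent separates them in the labels. The labels do not tell separate cultures from repeat libraries of 1 culture, so a p-value reflects only how far these samples vary, and that variation may be technical. Values are FPKM, fragments scaled to the length of the transcript and to the number of mapped fragments. The FPKM sum differed between libraries, so comparisons between libraries depend on the scaling, which was varied below.

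The respiratory chain passes electrons from NADH (complex I) and succinate (complex II) through ubiquinone to complex III, cytochrome c and complex IV, where oxygen is reduced. Complexes I, III and IV pump protons, and the ATP synthase uses the proton gradient to make ATP. Each complex except complex II joins a few subunits encoded in mitochondrial DNA to many nuclear-encoded ones, some of them catalytic and most of them small accessory proteins. Tumour lines differ in how far they rely on this chain or on glycolysis, and the chain is a main source of mitochondrial reactive oxygen species.

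The libraries differed within the control group more than within the irradiated group. The FPKM sum was 693961 to 982553 in controls and 652691 to 663489 in irradiated libraries, and read depth is unknown. Among the 11103 genes tested, those that reached 1 FPKM in 3 or more libraries, the median SD on the log2(FPKM + 1) scale was 0.30 among controls and 0.08 among irradiated libraries. Of 10 squamous or epithelial markers, 6 were under 0.5 FPKM in every library (Krt5, Krt14, Krt6a, Cdh1, Epcam and Dsp), so the defining squamous keratins of the labelled cell type were not seen, while the simple-epithelium keratins Krt8 and Krt18 were abundant. The summed epithelial list ran from 702 to 1896 FPKM in controls and from 487 to 499 in irradiated libraries, and Krt18 fell (log2 fold change -1.82, limma adjusted p = 0.0261). Markers of T cells, endothelium and muscle summed to at most 1.18 FPKM in any library. Macrophage markers summed to 17.4 to 22.7 FPKM in controls and 28.5 to 29.3 in irradiated libraries, with Ptprc, Adgre1, Csf1r and Itgam under 0.5 FPKM throughout and Lyz2 called higher (0.52, 0.3 and 0.78 against 2.37, 3.53 and 3.36 FPKM). Cd14, the most abundant of them (13.5 to 21.6 FPKM), and Cd68 (2.11 to 5.63 FPKM) were not called (log2 fold change 0.31 and 0.48). Fibroblast markers summed to 145 to 257 FPKM in controls and 199 to 225 in irradiated libraries, with Col1a1 and Dcn called higher in irradiated cells. Col1a2, Col3a1, Pdgfra and Pdgfrb were not called (log2 fold change 0.05, -0.37, 0.17 and -0.18). Lum and Thy1 were under 0.5 FPKM in every library. The part of these shifts in the results that follow was not tested. In bulk RNA, fewer cells of a type and less RNA per cell cannot be told apart.

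Most respiratory chain genes were lower in irradiated cells than in the control mean, and few passed the test. Of the 81 members, 79 passed the filter on low values, and the tissue isoforms Cox4i2 and Cox7b2 did not. By limma at a Benjamini-Hochberg adjusted p under 0.05 over all genes, 5 of the 79 fell and 0 rose, where 2.77% of all genes tested fell and 9.24% rose. At an unadjusted p under 0.05, 30 members were lower (11.1% of all genes) and 1 was higher (27.2%). The log2 fold change, which is the irradiated mean less the control mean of log2(FPKM + 1), was below 0 for 70 of the 79, with a median of -0.52 beside 0.17 for all genes. Those below 0 numbered 75 after trimmed-mean scaling, 56 after quantile normalization and 52 after a correction for transcript length and GC content. In 36 of the 79 members every irradiated library lay below every control, a separation that 13.7% of all genes tested showed, and in 1 member every irradiated library lay above every control, where 31.8% of all genes did.

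How far the members stood below other genes depended on the scaling. Relative to the median of all genes, the median of the members was -0.70 as deposited, -0.72 after trimmed-mean scaling, which sets libraries level by their trimmed log ratios, and -0.18 after quantile normalization. Those scalings moved the median of all genes from 0.17 to -0.00 and -0.01. After a fitted curve of transcript length and GC content was subtracted from each library, the distance was -0.28. Members called lower numbered 7 after trimmed-mean scaling (4.37% of all genes, with 6.16% higher), 6 after quantile normalization (5.08%, with 5.97% higher) and 7 after the length and GC correction (4.31%). The correction also called 2 higher (12.3% of all genes), Cox7a1 and the complex I accessory gene Ndufv3 (named after its value was seen).

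**Figure D1:**
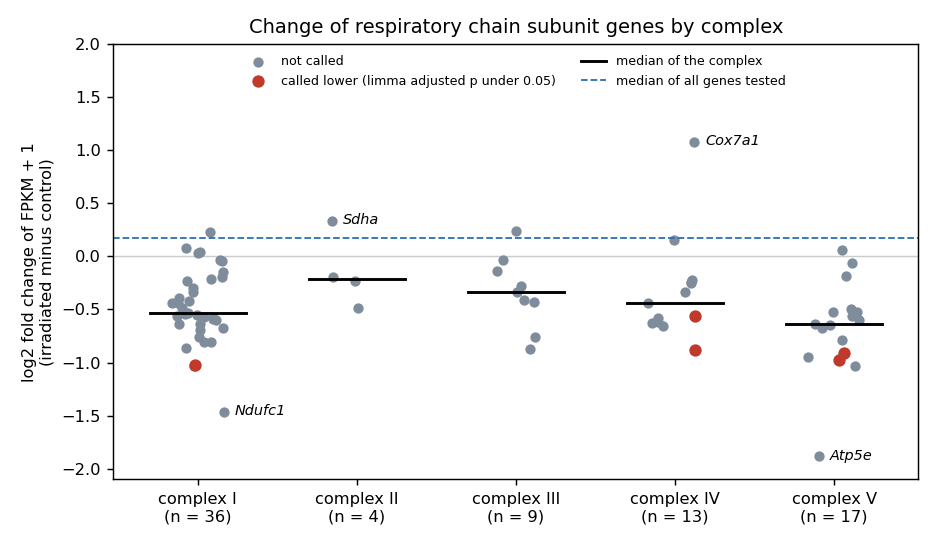
Log2 fold change of FPKM + 1 (irradiated minus control, vertical axis) of the 79 tested subunit genes in each complex (horizontal axis), with 1 point per gene, red points for the 5 genes called lower, a black line for the median of each complex and a dashed line for the median of all genes tested. The medians run from -0.21 in complex II to -0.64 in the ATP synthase, and Cox7a1 stands alone near 1.08.

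The 5 genes that fell all encode small subunits: Ndufb2 of complex I, Cox7a2 and Cox7a2l of complex IV or its supercomplexes, and Atp5l and Atp5mpl of the membrane part of the ATP synthase. Ndufb2, an accessory subunit of the membrane arm of complex I (NCBI gene 68198, chromosome 6, 39592565 to 39599843, GRCm38.p6), measured 33.4, 35.8 and 24.3 FPKM in controls 1 to 3 and 13.7, 13.6 and 16.8 in irradiated libraries 1 to 3. Cox7a2, the widely expressed isoform of a small complex IV subunit (NCBI gene 12866, chromosome 9, 79755241 to 79771422), measured 237, 260 and 177 FPKM in controls and 121, 113 and 125 in irradiated libraries. In both genes control 3 was the lowest control and still lay above every irradiated library. Their log2 fold changes were -1.02 (SE 0.18, limma adjusted p = 0.0226) and -0.88 (SE 0.17, limma adjusted p = 0.03).

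Cox7a2l, whose product joins complexes III and IV into supercomplexes (NCBI gene 20463, chromosome 17, 83501917 to 83514333), differed from the other 4 in that its controls were close together. It measured 167, 147 and 159 FPKM in controls and 99.5, 105 and 115 in irradiated libraries, so control 2 was its lowest control and the groups did not overlap. Its log2 fold change was -0.56 (SE 0.13, limma adjusted p = 0.0409).

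Atp5l encodes subunit g of the ATP synthase (NCBI gene 27425, chromosome 9, 44913248 to 44920742). It measured 988, 1127 and 701 FPKM in controls and 486, 464 and 453 in irradiated libraries (log2 fold change -0.98, SE 0.20, limma adjusted p = 0.0338). Atp5mpl, which encodes a small membrane protein of the same complex (NCBI gene 70257, chromosome 12, 111961374 to 111967009), measured 549, 611 and 398 FPKM in controls and 280, 283 and 253 in irradiated libraries (-0.91, SE 0.19, limma adjusted p = 0.0346). Both had control 2 highest, control 3 lowest and irradiated libraries within a narrow range below it.

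The 5 calls were not kept when a library was left out, control 3 excepted. Without control 1, control 2 or any 1 irradiated library, 0 of the 79 members were called by limma (1.63% of all genes without control 1, 4.96% without control 2 and 0.516%, 0.599% and 0.911% without irradiated libraries 1, 2 and 3). In those settings the adjusted p of the 5 genes ran from 0.0511 (Ndufb2 without control 2) to 0.215 (Cox7a2l without irradiated library 1), while their log2 fold changes lay between -0.51 and -1.12. Without control 3, whose values lay closest to the irradiated ones, 62 of the 79 members were called lower and 4 higher. Of all genes, 23.3% were then called lower and 45.8% higher. The 4 were Sdha, Ndufs1, Uqcrc2 and Cox7a1. After the length and GC correction Ndufb2 and Cox7a2l lost their calls (adjusted p = 0.0553 and 0.207), and after quantile normalization Cox7a2l did (0.132).

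**Figure D2:**
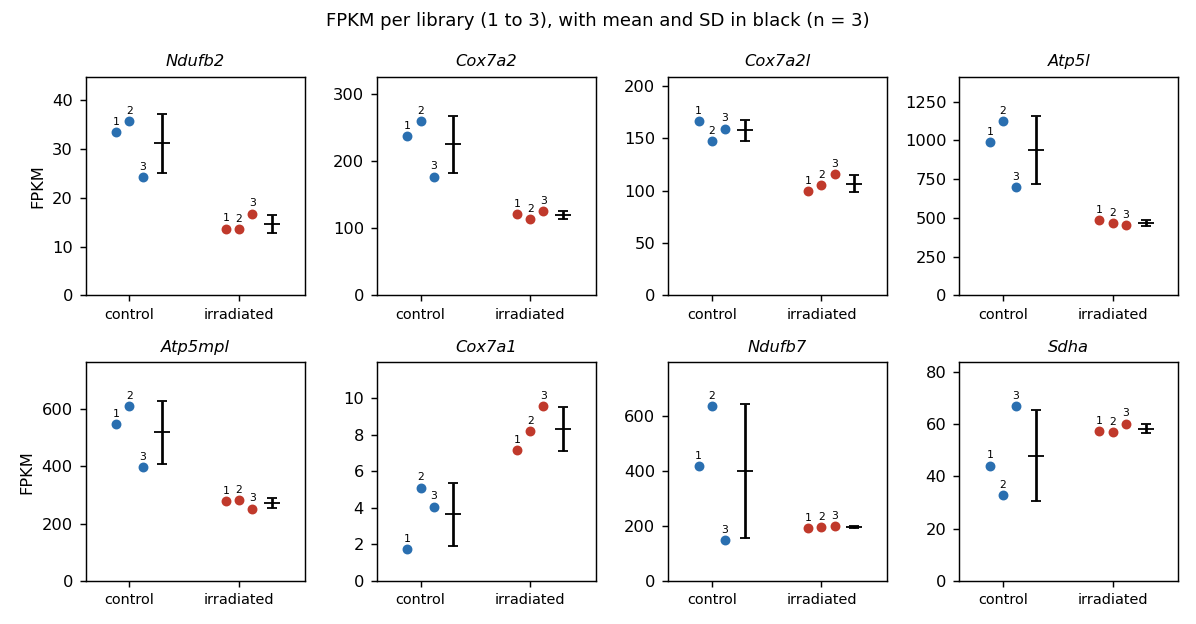
FPKM (vertical axis, from 0) of 8 subunit genes in each control and irradiated library (points numbered 1 to 3), with the mean and SD of each group in black (n = 3). Ndufb2, Cox7a2, Cox7a2l, Atp5l and Atp5mpl are lower in every irradiated library than in any control, Cox7a1 is higher, and in Ndufb7 and Sdha control 3 lies on the other side of the irradiated libraries from controls 1 and 2.

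Complex I is the largest of the complexes and the entry point of electrons from NADH. Its 36 genes, all tested, had a median log2 fold change of -0.54, with 32 below 0, 1 called and 13 with every irradiated library below every control. Over all genes tested, 2.77% were called lower, 13.7% showed this separation and 11.1% were lower at an unadjusted p under 0.05. The same shares stand beside the counts for parts of this complex and for the complexes that follow. Among the 7 nuclear core subunits, which carry the flavin, the iron-sulphur clusters or the ubiquinone site, 0 were called by limma, and 4 had an unadjusted p under 0.05. Ndufs8, which holds a pair of iron-sulphur clusters, measured 142, 165 and 92.5 FPKM in controls and 69.6, 69.1 and 83.8 in irradiated libraries (-0.80, SE 0.23, limma adjusted p = 0.0631). Ndufs3 of the hydrophilic arm measured 187, 250 and 104 FPKM in controls and 92.4, 94.2 and 91.5 in irradiated libraries (-0.87, SE 0.31, limma adjusted p = 0.093). In both genes control 3 was nearest to the irradiated values, and the groups did not overlap.

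Ndufv1, the flavin-binding subunit, had a log2 fold change of -0.58 (limma adjusted p = 0.0943), its neighbour Ndufv2 -0.57 (0.117) and Ndufs7, which carries the last iron-sulphur cluster before ubiquinone, -0.57 (0.233). Ndufs1 did not share this direction. Ndufs1, the largest subunit of the complex, measured 33.8, 25.8 and 40.2 FPKM in controls and 39.9, 35.9 and 39.9 in irradiated libraries (0.23, limma adjusted p = 0.359). Its highest control was control 3 and its lowest control 2.

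The 29 accessory genes of complex I had a median of -0.48, and control 3 was the lowest control in all 29. Over the whole table, control 3 was the lowest for 3986 of 11103 genes tested. Ndufc1, a small membrane-arm subunit, had the lowest log2 fold change of the complex, with 612, 1011 and 323 FPKM in the controls against 206, 210 and 218 (-1.46, SE 0.39, limma adjusted p = 0.0533; -1.02 and called after the length and GC correction, adjusted p = 0.0186). Its groups did not overlap, but the controls spanned 649 ± 346 FPKM (SD, n = 3) against 211 ± 5.83 in irradiated libraries. Ndufb9, the most abundant member of the complex, averaged 626 ± 236 FPKM in controls and 404 ± 18.9 after irradiation (-0.55, limma adjusted p = 0.213), and its controls ran from 365 to 822 FPKM, on both sides of the irradiated values. Ndufb7 showed the same layout, with 417, 635 and 148 FPKM in controls and 191, 194 and 198 in irradiated libraries; it is named for that layout, after its values were seen.

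Complex II, succinate dehydrogenase, is the complex that also belongs to the tricarboxylic acid cycle and has no subunit from mitochondrial DNA. Of its 4 genes 0 were called by limma and 1, Sdhb, had an unadjusted p under 0.05, with a median log2 fold change of -0.21. Sdha, the flavoprotein with the succinate site, measured 44.1, 33.0 and 66.9 FPKM in controls and 57.5, 57.02 and 60.3 in irradiated libraries (0.33, SE 0.25, limma adjusted p = 0.339). Sdhb, the iron-sulphur subunit, measured 176.5, 169 and 114 FPKM in controls and 109.5, 106 and 107 in irradiated libraries (-0.48, SE 0.19, limma adjusted p = 0.115). In the catalytic pair, control 3 was the highest control for Sdha and the lowest for Sdhb, with control 1 above control 2 in both. The membrane anchors Sdhc and Sdhd averaged 101 ± 9.39 and 81.0 ± 11.2 FPKM in controls and 86.0 ± 5.19 and 70.1 ± 4.39 after irradiation (-0.23 and -0.20, limma adjusted p = 0.223 and 0.328).

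Complex III carries electrons from ubiquinol to cytochrome c. Its 9 genes had a median log2 fold change of -0.34, and limma called 0 of them. At an unadjusted p under 0.05, 3 were lower. The catalytic Rieske iron-sulphur protein Uqcrfs1 measured 81.1, 70.1 and 80.0 FPKM in controls and 56.4, 64.3 and 61.7 in irradiated libraries (-0.34, SE 0.13, limma adjusted p = 0.105), and was called after trimmed-mean scaling and without control 3. Cyc1, cytochrome c1, measured 240, 263 and 149 FPKM in controls and 152, 157 and 167 in irradiated libraries (-0.41, limma adjusted p = 0.215), so its control 3 lay below all 3 irradiated values. Uqcrh, the hinge protein that helps cytochrome c1 meet cytochrome c, measured 610, 835 and 382 FPKM in controls and 322, 304 and 322 in irradiated libraries and had the smallest p of the complex (-0.87, SE 0.28, limma adjusted p = 0.0782). Uqcr10, a small accessory subunit, had a log2 fold change of -0.76 (0.0938), and Uqcr11, the most abundant member, -0.28 (0.459), which turned to 0.15 after quantile normalization and 0.29 after the length and GC correction. Uqcrc2, one of the core proteins, had the highest log2 fold change, with 78.8, 66.1 and 88.3 FPKM in controls and 91.5, 87.3 and 95.6 in irradiated libraries (0.24, limma adjusted p = 0.249).

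Complex IV, cytochrome c oxidase, passes electrons to oxygen, and all of its nuclear-encoded subunits surround a core encoded in mitochondrial DNA. Of 13 genes tested, 2 were called lower (Cox7a2 and Cox7a2l) and the median was -0.44. This median was -0.08 after quantile normalization and 0.02 after the length and GC correction, beside -0.01 and 0.15 for all genes. Cox6c, the most abundant of all 81 members, measured 1723, 2349 and 1082 FPKM in controls and 1081, 1035 and 1052 in irradiated libraries (-0.63, SE 0.29, limma adjusted p = 0.15). Cox6b1, Cox6a1 and Cox8a averaged 1107 ± 370, 1107 ± 277 and 1172 ± 181 FPKM in controls and 709 ± 9.89, 707 ± 59.6 and 860 ± 80.9 after irradiation, and none was called (limma adjusted p = 0.151, 0.0943 and 0.121). Cox8a turned to 0.05 after quantile normalization and 0.11 after the length and GC correction. Cox4i1, the widely expressed form of the subunit that binds regulatory nucleotides, had a log2 fold change of -0.22 (limma adjusted p = 0.409), and 0.26 and 0.28 in those settings. Cox7b averaged 172 ± 20.2 FPKM in controls and 191 ± 1.44 after irradiation (0.15, limma adjusted p = 0.415; -0.04 after trimmed-mean scaling).

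Several complex IV subunits exist as a widely expressed form and a form typical of muscle, lung or testis. The latter were scarce here: Cox4i2 measured 0.77, 0.53 and 0.68 FPKM in controls and 0.26, 0.28 and 0.41 in irradiated libraries, and Cox7b2 was listed at 0 in 4 libraries, at 0.24 in control 3 and at 1.13 in irradiated library 3. Cox6a2 averaged 4.26 ± 1.86 FPKM in controls and 3.26 ± 0.53 after irradiation (-0.24, limma adjusted p = 0.566; 0.18 after the length and GC correction). Cox7a1, the heart and skeletal muscle form of the Cox7a subunit (NCBI gene 12865, chromosome 7, 30184171 to 30186030), was the member with every irradiated library above every control. It measured 1.75, 5.11 and 4.07 FPKM in controls and 7.17, 8.22 and 9.58 in irradiated libraries, a log2 fold change of 1.08 that missed the threshold (SE 0.30, limma adjusted p = 0.0611; called after the length and GC correction, 0.0379, and without control 3, 0.00867).

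Cox7a1 made up a larger part of the Cox7a transcripts in irradiated cells, where its more abundant partner Cox7a2 had fallen. Its share of the summed Cox7a1 and Cox7a2 FPKM was 0.733%, 1.93% and 2.25% in controls and 5.59%, 6.75% and 7.11% in irradiated libraries. The groups did not overlap in this share, and an exact test of 3 against 3 libraries cannot give a two-sided p below 0.1. Cox4i2 made up at most 0.154% of Cox4 transcripts and Cox6a2 at most 0.633% of Cox6a transcripts in any library. The sum of 7 muscle markers, among them Ckm and Mb, was 0.17 to 1.18 FPKM in controls and 0.76 to 1.01 in irradiated libraries, so other muscle genes were near 0. The 150 bases before a listed start of each Cox7a gene are shown because these isoforms differed in direction. They come from RefSeq (GRCm38.p6) and are written 5′ to 3′ on the gene's strand. None of the motifs searched (given with the c subunit genes) occurs in them, so neither has capitals. The Cox7a2 stretch lies inside the gene span given above, so the start used is not the outer end of that span.
Cox7a1, plus strand, chr7:30184021-30184170: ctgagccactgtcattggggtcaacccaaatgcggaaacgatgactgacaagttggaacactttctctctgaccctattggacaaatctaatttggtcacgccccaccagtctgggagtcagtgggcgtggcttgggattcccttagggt
Cox7a2, minus strand, chr9:79759854-79760003: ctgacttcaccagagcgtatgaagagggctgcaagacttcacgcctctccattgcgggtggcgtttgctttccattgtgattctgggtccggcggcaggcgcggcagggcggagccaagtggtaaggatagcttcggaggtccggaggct

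The ATP synthase had the lowest median of the 5 complexes as deposited, -0.64, though not in every setting. After quantile normalization complex I was lower (-0.30 against -0.22), and without control 1 complex IV was lower (-0.52 against -0.49). Against control 3 alone complex II was lower (-0.20 against -0.18). The ATP synthase had 16 of 17 genes below 0 and 11 with every irradiated library below every control. Its soluble F1 head, which makes ATP, was mixed. The catalytic subunits Atp5a1 and Atp5b were not called, at 326 ± 31.2 and 838 ± 37.7 FPKM in controls and 338 ± 18.8 and 738 ± 5.43 in irradiated cells (0.06 and -0.18, limma adjusted p = 0.777 and 0.333; Atp5a1 -0.14 after trimmed-mean scaling). Atp5e, the small epsilon subunit of the central stalk, had the lowest log2 fold change of all members, with 1042, 1648 and 368 FPKM in the controls against 211, 252 and 234 (-1.88, SE 0.51, limma adjusted p = 0.0562; -1.38 and called after the length and GC correction, adjusted p = 0.0255). The groups did not overlap for Atp5e, and the controls differed among themselves by more than control 3 differed from the irradiated libraries.

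The 5 genes for small membrane subunits of the ATP synthase had a median of -0.94, the lowest of its parts. Besides Atp5l and Atp5mpl, which fell, Atp5j2 (subunit f) measured 1699, 2215 and 961 FPKM in controls and 729, 761 and 761 in irradiated libraries (-1.03, SE 0.30, limma adjusted p = 0.0657). Atp5md, a further small membrane subunit, averaged 1374 ± 442 FPKM in controls and 687 ± 8.59 after irradiation (-0.94, limma adjusted p = 0.0606), and Atp5k (subunit e) 575 ± 279 and 330 ± 21.8 (-0.65, limma adjusted p = 0.264). Both are listed to complete the set and fall outside the rule for named genes. The 4 peripheral stalk genes (Atp5pb, Atp5h, Atp5j and Atp5o), whose products hold the head still, had a median of -0.52, with values from -0.64 for Atp5h to -0.07 for Atp5pb. Atpif1, which encodes the inhibitor of the enzyme and is no member by its symbol, had a log2 fold change of -0.29 (limma adjusted p = 0.34; 0.16 after the length and GC correction).

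The c ring, which turns as protons pass, is built from a protein encoded by 3 genes, Atp5g1, Atp5g2 and Atp5g3, whose mature products are identical. Atp5g1 measured 774, 990 and 368 FPKM in controls and 370, 385 and 385 in irradiated libraries (-0.78, SE 0.35, limma adjusted p = 0.149). Atp5g2 measured 962, 834 and 929 FPKM in controls and 647, 632 and 644 in irradiated libraries (-0.50, SE 0.14, limma adjusted p = 0.0599). Its log2 fold change was -0.10 after quantile normalization and -0.0076 after the length and GC correction, and it was called after trimmed-mean scaling (-0.70, adjusted p = 0.0438). Atp5g3 measured 557, 534 and 332 against 280, 310 and 327 (-0.60, limma adjusted p = 0.107). Only in Atp5g1 among the 3 did the groups overlap, through control 3. The share of Atp5g1 in the summed c subunit FPKM was 33.7%, 42.0% and 22.6% in controls and 28.6%, 29.0% and 28.4% in irradiated libraries, so the irradiated shares lay inside the control range. Atp5g2 took 42.0%, 35.4% and 57.05% in controls and 47.5% to 49.9% in irradiated libraries.

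The upstream sequences of these 3 genes are shown because they drive 1 protein from separate promoters, with that of Atp5e, the member with the lowest log2 fold change. Each is the 150 bases before the start in RefSeq (GRCm38.p6), 5′ to 3′ on the gene's strand, and capitals mark the palindromic motif of NRF1, searched with its middle base free, or the ETS motif of factors such as GABPA (CCGGAAG), both on either strand. These factors are known regulators of respiratory chain genes. The Atp5g3 stretch lies inside the listed span of its gene, and the Atp5g1 stretch overlaps the span of its gene. The starts used for these genes are therefore not the outer ends of their spans.
Atp5g1, minus strand, chr11:96075632-96075781: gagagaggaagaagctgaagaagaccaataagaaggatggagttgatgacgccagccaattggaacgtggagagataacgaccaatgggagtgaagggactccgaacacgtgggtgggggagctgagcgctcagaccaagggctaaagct
Atp5g2, minus strand, chr15:102671048-102671197: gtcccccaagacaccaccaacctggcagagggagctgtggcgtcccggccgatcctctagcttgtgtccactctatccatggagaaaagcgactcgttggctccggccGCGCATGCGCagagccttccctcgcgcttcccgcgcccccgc
Atp5g3, minus strand, chr2:73911327-73911476: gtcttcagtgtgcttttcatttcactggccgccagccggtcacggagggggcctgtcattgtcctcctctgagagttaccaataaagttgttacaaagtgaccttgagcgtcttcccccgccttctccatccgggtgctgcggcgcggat
Atp5e, minus strand, chr2:174464102-174464251: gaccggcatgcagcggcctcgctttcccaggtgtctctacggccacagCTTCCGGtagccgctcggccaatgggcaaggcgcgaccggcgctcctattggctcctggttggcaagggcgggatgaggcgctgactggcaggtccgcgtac

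The Atp5g2 stretch holds the NRF1 letters from position -42 and that of Atp5e the ETS letters from position -102, counted from the start. Atp5g3 holds the NRF1 letters with a free base at position 13, past the start and outside the stretch shown. In the window of 250 bases before to 50 after the start, promoters were found for 66 of the 81 members. The NRF1 letters occurred in 17 of the 66 (25.8%), against 5.19% of the 27025 genes in the RefSeq promoter table, which include genes outside the deposited one, and the ETS letters in 17 (25.8%), against 9.93%. The letters of a long YY1 motif occurred in 5 (7.58%), against 0.995%. Members with the NRF1 letters had a median log2 fold change of -0.56 and those without -0.54, and for the ETS letters the medians were -0.64 and -0.49. A match of letters is a description of the sequence, and no binding was measured here.

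The controls differed among themselves in the same members. Control 3 was the lowest control for 66 of the 79 tested members, where it was the lowest for 3986 of 11103 genes. The order control 2, then control 1, then control 3 held for 51 members and for 24.9% of all genes. Set against control 1 alone, the irradiated mean was lower for 74 members (38.9% of all genes), against control 2 for 69 (36.5%) and against control 3 for 47 (41.6%). The member medians were -0.65, -0.79 and -0.06 on the log2 scale. For complex I they were -0.69, -0.88 and 0.00, for complex III -0.49, -0.69 and 0.05, for complex IV -0.56, -0.66 and -0.05 and for the ATP synthase -0.77, -1.03 and -0.18. Complex II differed in order, at -0.39, -0.06 and -0.20. These values compare libraries, have no replicate check for a single control and share the irradiated mean.

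**Figure D3:**
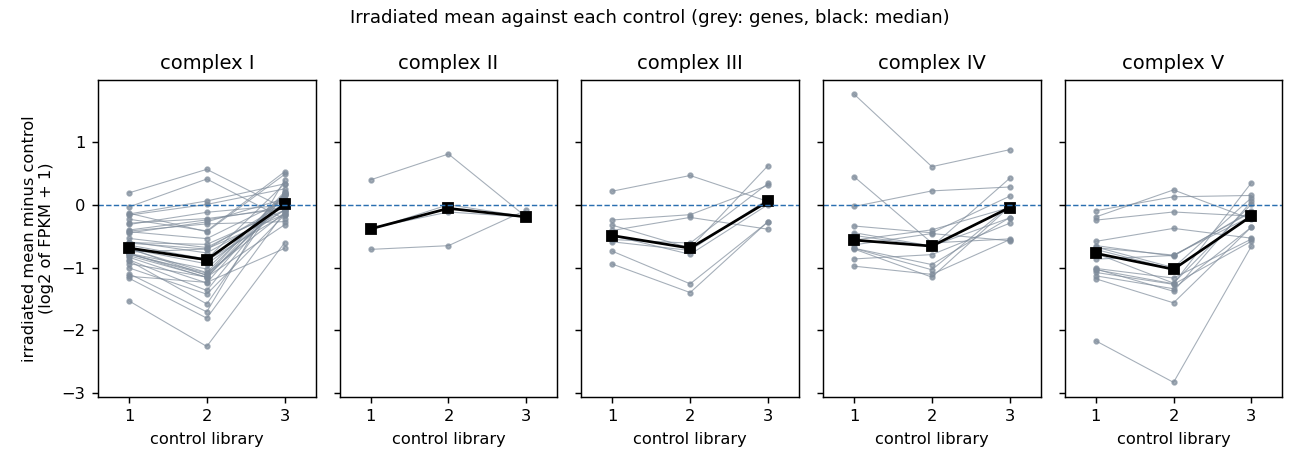
Irradiated mean minus each control library on the log2(FPKM + 1) scale (vertical axis) against the number of the control library (horizontal axis) for each complex, with 1 grey line per gene and black squares for the median. In complexes I, III, IV and V the medians lie between -0.49 and -1.03 for controls 1 and 2 and between -0.18 and 0.05 for control 3.

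A small set of members was lower than every control, control 3 included, by at least 0.5 on the log2 scale. These were Ndufb2, Ndufc1, Cox7a2, Atp5e, Atp5l and Atp5mpl, which is 6 of the 79, and 2.03% of all genes tested met the same limit, which was chosen after the values were seen. Against control 3 their differences ran from -0.55 for Atp5mpl to -0.70 for Ndufb2. Cox7a2l met it against controls 1 and 3 (-0.64 and -0.58) but not against control 2 (-0.46). At the other end, the members with control 3 as their highest control included Sdha, Ndufs1, Uqcrc2 and Atp5pb.

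The members share short transcripts, which the symbol rule did not use. Their median transcript length was 714 bases, against 2737 for all genes tested with a known length, and their median GC content was 51.8%, against 50.4%. Across the 79 members the log2 fold change was higher for longer transcripts (log2 scale), with Pearson r = 0.40 and Spearman rho = 0.42, and across 10930 genes tested r was 0.36 and rho 0.43. The difference between control 2 and control 3, which involves no irradiated library, also ran with length, with r = -0.52 in the members and -0.42 across all genes. Spearman rho was -0.38 in the members and -0.43 across all genes. Genes are not independent replicates, and all points come from the same 6 libraries. The 26 members with the shortest transcripts had a median log2 fold change of -0.65, the next 27 had -0.54 and the 26 with the longest -0.32. Other genes tested in the same ranges of length had medians of -0.36 (180 genes), -0.35 (566) and 0.20 (10105). The longest range has no upper limit. Its other genes had a median length of 2906 bases against 1520.5 for its members, so that range does not match them in length. Every irradiated library lay below every control in 50%, 40.7% and 46.2% of the members of these ranges and in 35.6%, 30.9% and 12.2% of the other genes. After the length and GC correction the medians were -0.22, -0.12 and -0.11 for the members and 0.11, 0.02 and 0.16 for the other genes. The corrected medians of complexes I to V were -0.13, -0.04, -0.11, 0.02 and -0.24, beside 0.15 for all genes. The part of transcript length in the differences between the groups was not tested apart from this correction.

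**Figure D4:**
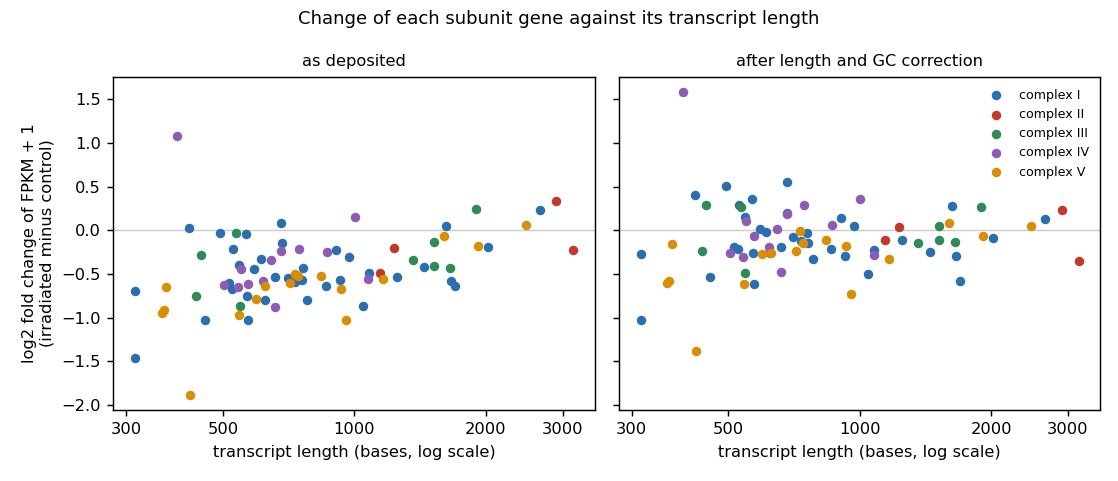
Log2 fold change of FPKM + 1 (irradiated minus control, vertical axes) against transcript length in bases (horizontal axes, log scale) for the 79 tested members, coloured by complex, as deposited on the left and after the correction for length and GC content on the right. On the left shorter transcripts tend to lie lower (r = 0.40). On the right the median of the members is -0.13 in place of -0.52, with Atp5e, Ndufc1 and Cox7a1 still apart. Not every point moves towards 0, and Cox7a1 goes from 1.08 to 1.58.

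Genes that assemble the complexes were described from a list for each complex. For complex I, 18 assembly genes were tested, 3 fell and 0 rose, with a median of -0.18. Over all genes 2.77% fell and 9.24% rose, with a median of 0.17, and the same shares stand beside the lists that follow. Nubpl, which delivers iron-sulphur clusters to complex I, measured 12.5, 13.6 and 11.1 FPKM in controls and 8.67, 7.22 and 6.79 in irradiated libraries (-0.65, SE 0.15, limma adjusted p = 0.0394), and the other 2 were Tmem126a and Dmac1 (-0.48 and -0.74). Of 4 complex II assembly genes Sdhaf4, which helps to mature the flavoprotein Sdha, fell by 0.67 on the log2 scale (limma adjusted p = 0.0402). Of 24 complex IV assembly genes, 2 fell and 1 rose, with a median of -0.165. Cox14 fell from 112, 116 and 94.0 to 59.2, 67.9 and 64.5 FPKM (-0.74, SE 0.14, limma adjusted p = 0.0254), and Cox20, a chaperone of a mitochondrially encoded complex IV subunit, by 0.88. Surf1, an assembly factor of the same complex, rose from 15.5, 12.9 and 13.4 to 20.9, 24.7 and 20.9 FPKM (0.63, SE 0.14, limma adjusted p = 0.0362). None of 5 complex III and 5 ATP synthase assembly genes passed limma. Each list held 1 gene at an unadjusted p under 0.05, Uqcc3 (-0.80, adjusted p = 0.114) and Fmc1 (-0.46, adjusted p = 0.0676; 0.05 after the length and GC correction). After the length and GC correction Tmem126a, Sdhaf4 and Cox14 were no longer called (adjusted p = 0.28, 0.0782 and 0.221). Leaving out control 1, control 2 or any 1 irradiated library ended the calls of Nubpl, Sdhaf4 and Cox14, with adjusted p from 0.0528 to 0.208. Tmem126a, Dmac1, Cox20 and Surf1 were named after their values were seen. What leaving out a library did to their calls is not reported here. Without irradiated library 1, 2 or 3, 0.516%, 0.599% and 0.911% of all genes tested were called.

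Ndufa4l2, a paralog of Ndufa4 known as a hypoxia-induced gene and outside the symbol rule, fell from 42.3, 48.7 and 30.6 to 15.7, 16.7 and 9.99 FPKM (-1.46, SE 0.25, limma adjusted p = 0.0201). Its adjusted p was 0.101 to 0.118 without control 1 or any 1 irradiated library. Ndufa4 itself averaged 518 ± 28.5 FPKM in controls and 411 ± 25.9 after irradiation (-0.33, limma adjusted p = 0.123) and kept its groups apart. The carrier that brings phosphate to the ATP synthase, Slc25a3, measured 871, 1159 and 601 FPKM in controls and 479, 475 and 458 in irradiated libraries (-0.84, limma adjusted p = 0.0648), and none of the 6 nucleotide and phosphate carriers tested passed, Slc25a3 being the 1 at an unadjusted p under 0.05.

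The neighbouring pathways showed no call. Their lists held longer transcripts than the members, whose median length was 714 bases. The medians were 2460.5 bases for the tricarboxylic acid cycle, 1743 for coenzyme Q and cytochrome c and 1921.5 for other electron entry. After the length and GC correction the median log2 fold changes of these lists were 0.0033, 0.22 and 0.14, against -0.13 for the members and 0.15 for all genes. None of 14 tricarboxylic acid cycle genes passed limma, nor did any at an unadjusted p under 0.05, and their median was 0.04. Of these 14, 12 lay below the median of all genes, 0.17. The 13 tested genes for coenzyme Q synthesis and cytochrome c had a median of 0.08, 0 calls and 1 gene in each direction at an unadjusted p under 0.05, and Pdss2, which makes the side chain of coenzyme Q, had 0.58 (adjusted p = 0.065; called higher after the length and GC correction, 0.0487, and without control 3, 0.00353). For 6 other genes that feed electrons to ubiquinone the median was 0.22, with 0 calls and 0 at an unadjusted p under 0.05, and Etfdh had 0.83 (adjusted p = 0.132).

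Regulators of mitochondrial gene expression were not called either, and their median transcript length was 3184 bases. Of 12 tested, 0 passed limma and 2 were higher at an unadjusted p under 0.05, with a median of 0.17, the same as all genes to 2 decimals. Those 2 were the nuclear receptor Esrra, at a mean of 10.25 FPKM in controls and 14.5 in irradiated cells (0.45, adjusted p = 0.0786; called higher after the length and GC correction, 0.0315, and without control 3, 0.0233), and Polg, the polymerase of mitochondrial DNA (0.41, adjusted p = 0.0784; called higher without control 3, 0.00389). The transcription factors Nrf1, Gabpa and Yy1 had log2 fold changes of -0.15, 0.54 and 0.59 (adjusted p = 0.437, 0.282 and 0.142), and Gabpb1, the partner of Gabpa, 0.12 (-0.01 after quantile normalization and -0.07 after trimmed-mean scaling). Tfam, which packages and transcribes mitochondrial DNA, had -0.26 (adjusted p = 0.179; called lower after the length and GC correction, 0.025, quantile normalization, 0.0395, and trimmed-mean scaling, 0.0491), Tfb2m -0.16 (0.01 without control 3), Tfb1m 0.24 (-0.12 after quantile normalization), the polymerase Polrmt -0.03 (0.0019 without irradiated library 3), the helicase Twnk 0.14 (-0.20 and -0.03 after quantile normalization and trimmed-mean scaling) and the coactivator Pprc1 0.20 (-0.02 after quantile normalization). The coactivators Ppargc1a and Ppargc1b did not pass the filter, at 0.03 to 0.51 and 0.33 to 0.79 FPKM. Subunits encoded in mitochondrial DNA were not analysed here.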

How the data were processed

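Total RNA of 6 samples was treated with DNase I and depleted of ribosomal RNA, per the labels' protocols. The authors deposited FPKM values for 17030 genes, per the file headers. HISAT and the build GRCm38.p6 come from the submitters' processing notes. How fragments were counted, with which annotation and strand setting, is not given in the sources used here, so reads of short subunit genes could have been shared with processed copies elsewhere in the genome. FPKM keeps no read number, so the number of libraries limits the precision.

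Genes that reached 1 FPKM in 3 or more samples entered limma 3.58.1 (R 4.3.3) as log2(FPKM + 1), with 2 groups, the trend and robust options of eBayes and Benjamini-Hochberg adjustment over all 11103 genes, and were called at an adjusted p under 0.05. The fit was also run on simulated data with independent noise of equal spread in both groups. The libraries here differ in spread between the groups, so that run does not vouch for the calls. Positions come from RefSeq, and length and GC content from GENCODE M21 (the transcript of median length among those paired with a RefSeq mRNA), known for 10930 genes tested and all 81 members.

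Named genes are, in each complex, the most abundant member, the 2 smallest p-values and the highest and lowest log2 fold change, with the isoform groups, core and catalytic subunits, Sdh genes, Atpif1, the smallest p of each pathway list and the biogenesis regulators. Some of these genes are not reported here. Members, lists and tests were chosen with earlier results of these data known. Alternatives were quantile normalization, trimmed-mean scaling (30% of log ratios and 5% of levels trimmed, without weights), no filter, a filter at 5 FPKM, a pseudocount of 0.1, limma without trend and robust options, the sample number as a block, a length and GC correction (splines with 4 degrees of freedom) and leaving out each library.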

Additional observations from a re-analysis of the deposited data

How the results depend on the processing

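The number of genes called over the whole table was 1334, 727 with the filter at 5 FPKM, 300 with the replicate block and 56 to 7638 when 1 library was left out. Subunit genes called numbered 5, 0 with the replicate block, 9 with the length and GC correction and 0 to 66 when 1 library was left out, the highest without control 3 and 0 without each of the other 5. In the other settings they numbered 5 to 7. The labels do not say whether the sample numbers pair the libraries. Same-numbered deviations from the group means correlated at -0.11, 0.02 and -0.16 over genes, which cannot decide it with 3 libraries in each group. The block result is given only here. Complex medians against control 3 alone were 0.0015, 0.049, -0.047 and -0.184 for complexes I, III, IV and V. That of complex II was -0.41 after trimmed-mean scaling, -0.040 after the length and GC correction and -0.39 against control 1 alone. That of complex IV was -0.076 after quantile normalization and 0.018 after the length and GC correction. The median of all genes was -0.011 and 0.15 in those 2 settings. The direction of genes chosen by the naming rule, none of them called in the test as reported, turned under quantile normalization for Cox4i1 (0.26), Cox8a (0.054), Uqcr11 (0.15), Gabpb1 (-0.013), Pprc1 (-0.020), Tfb1m (-0.12) and Twnk (-0.195). Trimmed-mean scaling turned Atp5a1 (-0.14), Cox7b (-0.041), Gabpb1 (-0.071) and Twnk (-0.031). The length and GC correction turned Atpif1 (0.16), Cox4i1 (0.28), Cox6a2 (0.18), Cox8a (0.11), Fmc1 (0.046), Sdhd (0.035) and Uqcr11 (0.29), and members not named by the rule turned too, since 52 of 79 were then below 0 in place of 70. Leaving out 1 library gave -0.068 to 0.0019 for Polrmt and -0.31 to 0.014 for Tfb2m. The causes of these shifts were not tested. With 3 libraries in each group, 1 of them apart from the other controls, and no read numbers, small differences in subunit genes could not be resolved.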
